A study of Populus cathayana with 4 samples.

Results

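Leaves of female Populus cathayana, a dioecious poplar, were compared between plants exposed to ambient solar UV-B and plants exposed to reduced solar UV-B for 100 days. The comparison used 2 of the 4 libraries of the series, females under ambient UV-B and females under reduced UV-B, and males under ambient UV-B and males under reduced UV-B are given side by side where a value of theirs bears on a female result. Every library was made from the fourth fully expanded leaves of 9 greenhouse-grown cuttings, whose RNA was pooled in equal proportions, so each group is 1 pool and no value has a replicate error. Transcripts were counted by digital gene expression, in which a 17 bp tag beside a restriction site near the 3′ end stands for a transcript. A difference between the female libraries cannot be told apart from a difference between pools or between flow cell lanes, since each library had a lane of its own.

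UV-B is the short-wave part of sunlight that leaves perceive and that can damage DNA, proteins and photosystems. In Arabidopsis it is perceived by the receptor UVR8, which acts with the ubiquitin ligase COP1 to switch on genes such as those for flavonoids, pigments that screen UV-B in the epidermis. Cells also meet it with DNA repair enzymes, with enzymes and small proteins that remove oxidants, and with changes in phenolic and cell wall metabolism. Some of these responses are set off within hours, whereas the plants here had been under their UV-B level for 100 days.

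The deposited table listed 19100 gene rows, whose counts made up 14.4% of all tags in females under ambient UV-B and 15.0% in females under reduced UV-B, with exact binomial 95% intervals of 14.4% to 14.5% and 15.0% to 15.1%. The listed counts summed to 624926 in the ambient and 660483 in the reduced library. Of these rows, 10741 had 10 or more counts over the 4 libraries and were tested, 392 of them with exactly 10, and 8359 rows fell under that limit. Among the tested rows 246 had no count in either female library. The table holds no count of 1, so a listed 0 can stand for 0 or 1 tag, and 3 counts correspond to 0.69 CPM (CPM being tag counts scaled by the library total) in the ambient library and 0.68 CPM in the reduced library. Leaf identity was checked by marker lists. In females, 20 rows of mesophyll genes (antenna proteins, Rubisco subunits and the like) held 29728 counts under ambient and 36713 under reduced UV-B. By contrast, 2 phloem rows held 72 and 81 counts. No row was described as a guard cell or flower marker, so those 2 lists could not be checked. Only 2940 of the 19100 rows had a description that names a protein. The 6 rows listed for dividing cells, all H4 histones, held 376 and 525 counts, most of them in a single row (Potri.007G013300.1, 278 and 442), and 1 and 3 of the 6 were at 0. Because the leaf is bulk tissue, fewer cells of a type and less RNA per cell cannot be told apart.

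Under ambient UV-B, female leaves had more transcript of metallothionein 3a, 2 glutaredoxins, a tau class glutathione transferase, 3 Kunitz-type protease inhibitors and 4 cytochromes P450. A further Kunitz-type inhibitor and 2 other cytochromes P450 fell, among them Potri.014G037900.1 with 5 counts against 171. Less transcript under ambient UV-B was called for 2 of 7 rows of aromatic amino acid synthesis, though 4 of those 7 rows had more counts there. It was also called for 2 of 9 rows for methionine and the methyl donor S-adenosylmethionine and for a lignin methyltransferase, 1 of 32 lignin rows. Of 24 rows for wall polysaccharides and proteins 4 fell, cellulose synthases among them, and of 17 light-harvesting rows 2 fell. None of 15 rows in the flavonoid list and none of 6 in the list of light receptors and their partners was called in either direction. Over all tested rows 1.46% were called higher and 1.52% lower, so lists this small cannot tell 0 calls from those shares. A row was called where an exact conditional binomial test of its 2 counts, adjusted by Benjamini-Hochberg over all 10741 rows, gave p below 0.001 and the CPM differed at least 2-fold. This test sets 1 library against another and covers counting error only.

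In all, 157 rows were called higher under ambient UV-B (1.46% of those tested) and 163 were called lower (1.52%). At an unadjusted p below 0.05 by the exact test there were 1305 higher and 1212 lower. With no threshold, 5141 of the tested rows had fewer counts under ambient UV-B, 4752 had more and 848 had equal counts. Most calls were of moderate size: 96 of the higher rows differed between 2-fold and 4-fold, 29 between 4-fold and 8-fold and 16 by more than 8-fold, and 16 were at 0 in females under reduced UV-B. The lower rows divided into 85, 37 and 21 in the same size classes, and 20 were at 0 in females under ambient UV-B. Over all tested rows the log2 ratio (0.5 added to each count) had a median of 0.02, and over the 3478 rows with 100 or more counts it was 0.01, with quartiles at -0.36 and 0.39. When edgeR's exact test was given a presumed spread between pools (coefficient of variation 0.3) in place of counting error alone, 3 higher and 11 lower calls were left, so nearly every call below depends on how far pools of the same condition would have differed, which was not measured.

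**Figure D1:**
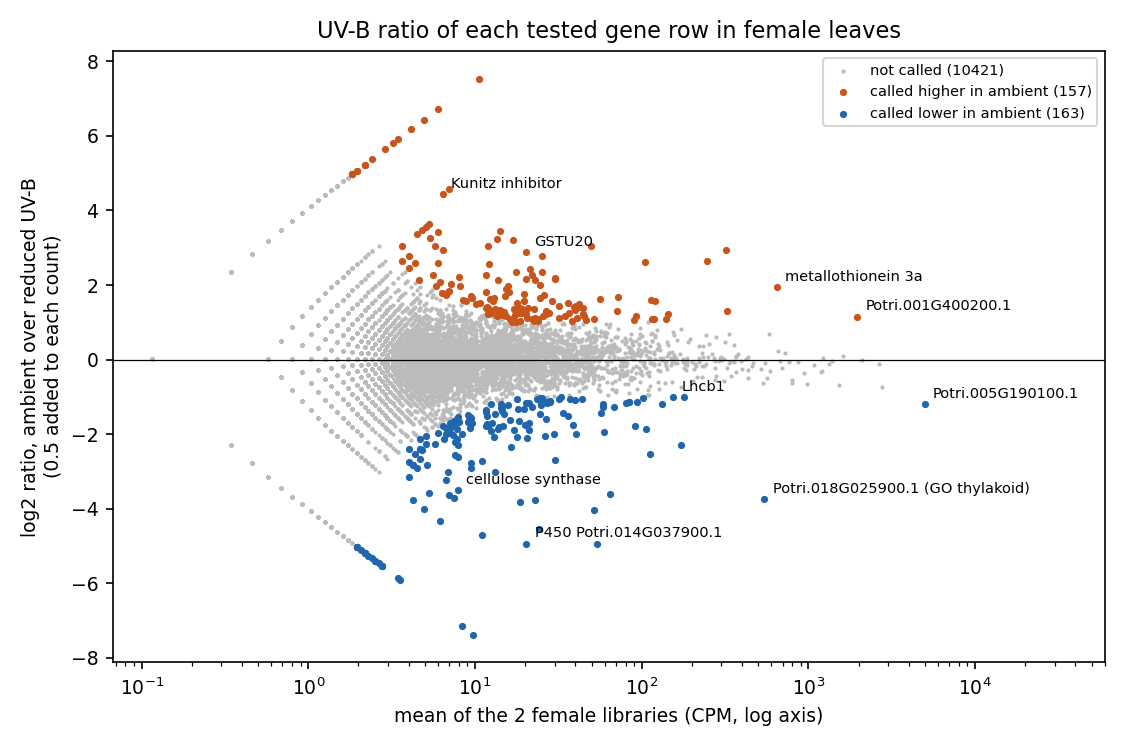
Log2 ratio of ambient over reduced UV-B in female leaves (y axis, 0.5 added to each count) against the mean CPM of the 2 female libraries (x axis, log scale), 1 point per tested row. The 157 rows called higher are orange, the 163 called lower are blue, and the lines of points that fan out at the left are rows with few counts, where only large ratios could pass the test.

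The calls with the most counts were mostly in rows without a protein name. The most abundant row of the table, Potri.005G190100.1, which carries no description or gene ontology term, fell to 13116 counts in females under ambient UV-B, against 30300 in females under reduced UV-B, a log2 ratio of -1.19 (exact 95% interval -1.22 to -1.16). That row made up the larger part of the tags in the lower calls, which held 21105 counts (3.38% of all listed counts) under ambient UV-B and 59313 (8.98%) under reduced UV-B. Potri.018G025900.1, annotated to the chloroplast thylakoid, fell to 325 counts, against 4419 (-3.74, interval -3.91 to -3.58), and Potri.016G015500.1, with no annotation, to 249 against 1244. Potri.001G394700.1 had 512 counts under ambient and 1053 under reduced UV-B, and its call ended with DESeq2 size factors and with the sums of the listed counts as library totals. In males that row was called higher, with 4731 counts under ambient and 2233 under reduced UV-B. The higher calls held 45466 counts (7.28%) under ambient and 16072 (2.43%) under reduced UV-B. Their leading row, the undescribed Potri.001G400200.1, rose to 11726 counts, against 5347 (1.16, interval 1.11 to 1.20). Potri.005G139000.1, also undescribed, rose to 2475 counts against 327 (2.94), and Potri.011G049900.1, annotated only to a membrane in the cytoplasm, to 1847 against 298 (2.65). Only 22 of the 157 higher and 29 of the 163 lower rows were described by a protein name, 101 and 91 more had gene ontology terms alone, and 34 and 43 had neither.

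**Figure D2:**
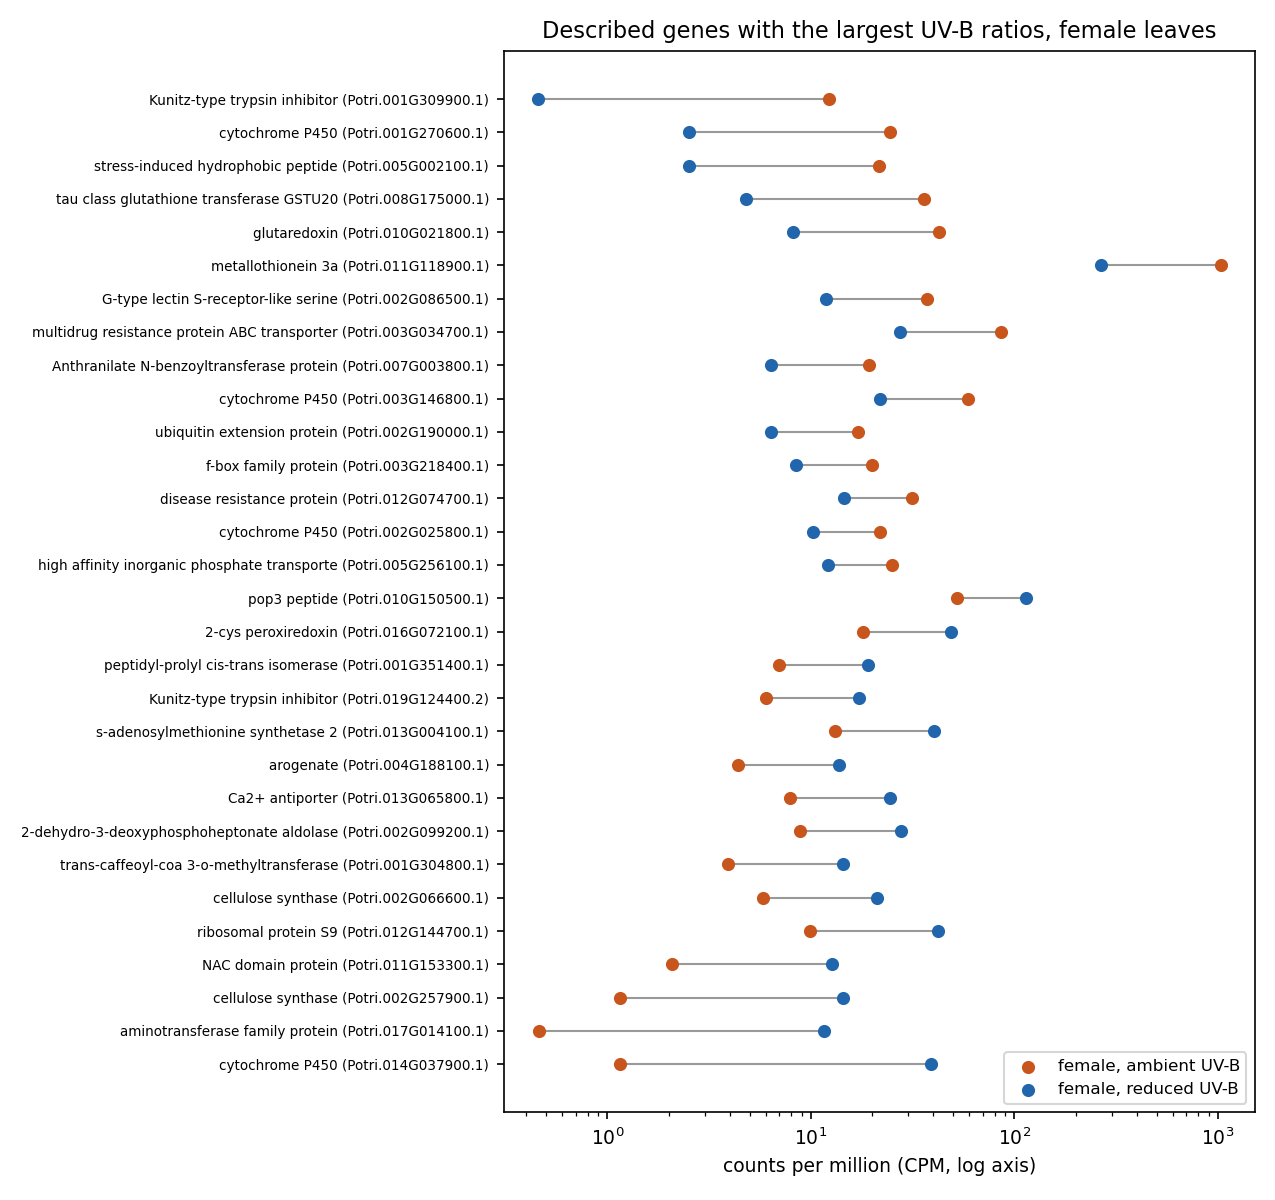
CPM (x axis, log scale) of the 15 described genes with the largest and the 15 with the smallest ratio among called genes with 50 or more counts in the higher library. Orange points are females under ambient UV-B and blue points females under reduced UV-B, 1 library each. The Kunitz-type inhibitor Potri.001G309900.1 at the top had 53 and 2 counts, the cytochrome P450 Potri.014G037900.1 at the bottom 5 and 171.

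Genes for UV-B perception and for the screening pigments did not pass the test. The list of light receptors and their partners had 6 tested rows with 0 called, a median log2 ratio of -0.27 and fewer counts under ambient UV-B in 5 of the 6. Phytochrome B2 (Potri.010G145900.2), a red light receptor and the most abundant of them, had 67 counts in females under ambient UV-B and 75 in females under reduced UV-B. The COP1-like ubiquitin ligases had 18 and 23 (Potri.012G140200.1) and 7 and 10 (Potri.015G143200.1). No row was described as UVR8. The interval for phytochrome B2 ran from -0.64 to 0.35 on the log2 scale, so that a difference of that size was not detectable at this depth.

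The flavonoid list had 15 tested rows with 0 called and a median of 0.02 (-0.12 over the 4 rows with 100 or more counts), and its summed level was 53.4 CPM under ambient and 51.9 CPM under reduced UV-B. Chalcone synthase, which makes the first flavonoid intermediate, has several near-identical copies. Potri.001G051600.1 had 39 counts under ambient and 20 under reduced UV-B, Potri.003G176800.1 had 23 and 28, and Potri.001G051500.1 had 13 and 13. The copies thus did not lean one way. A flavonoid O-methyltransferase (Potri.004G050400.2) came nearest to a call, with 27 and 6 counts and an adjusted p of 0.003 by the exact test. Dihydroflavonol 4-reductase (Potri.005G229500.2), an enzyme on the branch to anthocyanins and tannins, had 11 and 3, and flavonol synthase 1 (Potri.T003300.1), which makes the flavonols, had 0 and 8. The most abundant row, the transporter TRANSPARENT TESTA 12 (Potri.011G002600.1), which in Arabidopsis carries flavonoids into the vacuole, had 75 and 97. Of the 18 tested rows with the gene ontology term response to UV, 0 were called. The largest, the thylakoid row Potri.001G256900.1, had 4647 and 5886 counts, a log2 ratio of -0.32 (interval -0.37 to -0.26), below the fold that a call required.

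DNA repair rows were few and thin. DNA-3-methyladenine glycosylase (Potri.010G137300.1), which removes alkylated bases, fell to 2 counts in females under ambient UV-B, against 34 in females under reduced UV-B, a log2 ratio of -4.06 (interval -7.17 to -2.10). It was the only call among the 3 described repair rows and among the 30 rows with the gene ontology term DNA repair. Neither of the other two described rows was called: a RuvB-like helicase (Potri.004G199100.1) had 22 and 18 counts, and UVH3, a nuclease of nucleotide excision repair (Potri.017G070500.1), had 5 and 0. The most abundant row under the term, Potri.004G113700.1, had 60 and 81.

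Of the small redox and metal-binding proteins, 3 rows rose and none fell in the lists of metal handling and of thioredoxins and glutaredoxins, and none of the 3 kept its call with the presumed spread between pools. Metallothionein 3a (Potri.011G118900.1), a cysteine-rich protein that binds metals and can quench oxidants, rose to 4457 counts, or 1031 CPM, against 1173 counts, or 267 CPM, a log2 ratio of 1.95 (interval 1.86 to 2.04). It was the 1 call among 31 rows of metal handling, whose median was 0.02. The glutaredoxins, which reduce protein disulfides with glutathione, gave 2 calls in a list of 30 thioredoxins and glutaredoxins, both higher: Potri.010G021800.1 with 184 counts against 36 (2.38, interval 1.85 to 2.93), and Potri.014G134200.1 with 221 against 110 (1.03, interval 0.69 to 1.37). The list's median was 0.36, against 0.02 over all tested rows, and 19 of 30 rows had more counts under ambient UV-B. Its most abundant member, thioredoxin m (Potri.005G186800.1), a chloroplast protein, had 2040 and 2460 counts without a call. Potri.013G061200.1, a plastid row with the term disulfide oxidoreductase activity, rose to 277 counts, against 108 (1.38).

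Glutathione transferases, which attach glutathione to reactive or toxic molecules, had 1 call among 16 rows. The tau class enzyme GSTU20 (Potri.008G175000.1) rose to 155 counts in females under ambient UV-B, against 21 in females under reduced UV-B, a log2 ratio of 2.91 (interval 2.24 to 3.64). The most abundant member, GSTF1 (Potri.002G015100.1), had 1428 and 1516 counts. The list median was 0.21.

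Enzymes that remove peroxides moved in both directions. Transcript of 2-cys peroxiredoxin (Potri.016G072100.1), a chloroplast enzyme, fell to 78 counts, against 215 (-1.44, interval -1.83 to -1.06). The type II peroxiredoxin Potri.018G083500.1, the most abundant of the 10 rows of antioxidant enzymes, had 993 and 694 counts (0.54, interval 0.40 to 0.68), below the fold limit. Glutathione reductase (Potri.015G037800.1), which regenerates reduced glutathione, had 199 and 275. Under the gene ontology term antioxidant activity 4 of 46 rows were higher and 4 lower, with a median of -0.09, and of 0.15 over the 20 rows with 100 or more counts. Potri.009G140400.1, an extracellular oxidoreductase by its terms, had 91 counts under ambient UV-B and 0 under reduced UV-B. With 3 counts in place of the 0 its log2 ratio was 4.95, and the exact interval started at 4.62. Potri.013G156400.1 (242 and 114 counts) and Potri.005G001300.1 (165 and 68) rose as well. Potri.006G142600.1, annotated to the cell wall, fell to 14 counts, against 456 (-5.00, interval -5.89 to -4.24), and Potri.014G110400.1, also of the wall, to 16 against 53.

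Protease inhibitors that plants make against insects and their own proteases gave more rises than falls. Of 10 rows described as Kunitz-type inhibitors, 3 rose and 1 fell, and the median was 0.02, equal to that of all tested rows. Potri.001G309900.1 rose to 53 counts, against 2 (4.75, interval 2.83 to 7.83). KPI-A2.2 (Potri.T029100.1) had 35 counts and KPI-A5 (Potri.010G007900.1) had 20 under ambient UV-B, and both were at 0 under reduced UV-B. With 3 counts in place of each 0 their log2 ratios were 3.57 and 2.76, and the exact intervals started at 3.19 and 2.33. Potri.019G124400.2 fell to 26 counts, against 76. KPI-C1 (Potri.019G124600.1), the most abundant, had 129 counts in each female library. These genes are members of a family of close copies, and how tags that match several copies were counted is not given in the sources used here. Of 8 rows with the term endopeptidase inhibitor activity, 2 rose: Potri.016G030900.1 to 880 counts, against 380 (1.23, interval 1.06 to 1.41), and Potri.006G033200.1 to 738 against 246 (1.61, interval 1.40 to 1.82). Together the 8 rows stood at 608 CPM under ambient and 321 CPM under reduced UV-B, with more counts under ambient UV-B in 6 of 8.

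Among 131 rows with the gene ontology term endopeptidase activity, the cutting of proteins internally, 3 were higher and 8 lower. Some of these rows carry other functions as well, such as protein deneddylation for Potri.001G207900.1. Potri.008G155500.1 rose to 230 counts, against 82, Potri.018G014800.1 to 191 against 28, and Potri.001G207900.1 to 80 against 26. Potri.018G015100.1 fell to 197, against 733 (-1.87), Potri.014G171600.1 to 251 against 562, and Potri.017G092400.1 to 28 against 73. The most abundant member, Potri.018G014500.1, had 956 and 548 counts without a call (0.83, interval 0.67 to 0.98). Rows that carry almost the same terms thus moved in opposite directions.

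Other defence proteins were low where they were called. Among 14 rows 0 rose and 2 fell, with a median of -0.41. The pop3 peptide (Potri.010G150500.1), a small stress-responsive protein of poplar leaves, fell to 225 counts, against 503 (-1.14, interval -1.37 to -0.91), and polyphenol oxidase (Potri.011G108300.1), an enzyme that acts on phenolics when leaves are damaged, to 5 against 29 (-2.51, interval -4.24 to -1.13). A thaumatin-like pathogenesis protein (Potri.001G102400.1) had 147 and 92 counts and a beta-1,3 glucanase (Potri.016G057400.1) 88 and 149, both without a call. Of 78 rows for NBS-LRR proteins, which are intracellular immune receptors, and for other resistance proteins, 1 rose, beside 1.46% of all tested rows. That row, Potri.012G074700.1, had 136 counts against 64. It is described only as a disease resistance protein and annotated to carboxylesterase activity, which does not mark it as an NBS-LRR receptor. The most abundant of the 78 rows, the NBS-LRR row Potri.006G014400.1, had 232 and 194. A lectin receptor kinase (Potri.002G086500.1) rose to 161 counts, against 52 (1.65, interval 1.19 to 2.13), the row Potri.005G002100.1, described as a stress-induced hydrophobic peptide, to 93 against 11 (3.10), and an anthranilate N-benzoyltransferase (Potri.007G003800.1), of a class known for phytoalexin synthesis in carnation, to 83 against 28. Of 118 rows with the term defense response, 2 rose, Potri.013G041600.1 (140 and 67) and the kinase row Potri.017G097500.1 (130 and 50), and 2 fell, Potri.T094100.1 (42 and 522) and the peptidyl-prolyl isomerase described below. The largest row under the term, Potri.013G117000.1, had 1411 and 1815.

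Genes of aromatic amino acid synthesis, methyl donor synthesis, lignin and cell walls had 9 calls in 4 lists, all lower. The lists held 7, 9, 32 and 24 tested rows in that order, with 2, 2, 1 and 4 calls, and 1.52% of all tested rows were called lower. The lists were chosen with earlier results of these data known, so this is a description of them and no test. Plants make phenylalanine through the shikimate pathway, turn it into lignin monomers through phenylalanine ammonia-lyase, and methylate those monomers with S-adenosylmethionine. At the entry of the shikimate pathway, 2-dehydro-3-deoxyphosphoheptonate aldolase (DAHP synthase, Potri.002G099200.1), its committing step, fell to 38 counts in females under ambient UV-B, against 122 in females under reduced UV-B, a log2 ratio of -1.66 (interval -2.23 to -1.12). Arogenate/prephenate dehydratase (Potri.004G188100.1), which makes the precursor of phenylalanine, fell to 19, against 60 (-1.64, interval -2.46 to -0.87). A further copy of it (Potri.009G148800.1) had 13 and 41 counts without a call, at an adjusted p of 0.003 by the exact test. These were the 2 calls among the 7 rows of the pathway, and 3 of the 7 had fewer counts under ambient UV-B. A shikimate kinase-like protein (Potri.003G096600.1) had 46 and 28. The median log2 ratio was 0.51 over the 7 rows and -1.60 over the 4 rows with 100 or more counts in the 4 libraries, so the list gives no direction.

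Methyl donor synthesis had 2 lower calls. Of the 9 rows for methionine and S-adenosylmethionine, 0 rose and 2 fell, 8 had fewer counts under ambient UV-B, and the median log2 ratio was -0.87, against 0.02 over all tested rows. S-adenosylmethionine synthetase 2 (Potri.013G004100.1) fell to 57 counts, against 176 (-1.60, interval -2.06 to -1.17). A cobalamin-independent methionine synthase (Potri.T070100.1) fell to 6, against 34 (-2.48, interval -4.02 to -1.21). S-adenosylmethionine synthetase 5 (Potri.002G189200.1) had 9 and 26 without a call, and the most abundant member, methylenetetrahydrofolate reductase (Potri.017G000300.1), which supplies methyl groups to methionine, had 135 and 153.

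Lignin enzymes had 1 call in 32 rows, and 21 of the 32 had fewer counts under ambient UV-B, with a median of -0.48. Caffeoyl-CoA O-methyltransferase (Potri.001G304800.1), which methylates lignin monomers, fell to 17 counts, against 63 (-1.87, interval -2.73 to -1.08). Phenylalanine ammonia-lyase (Potri.006G126800.1), the entry enzyme and the most abundant of the list, had 215 and 396 counts, a log2 ratio of -0.86 (interval -1.11 to -0.62) with an adjusted p of 5.2e-11 by the exact test but below the fold limit. Another copy (Potri.016G091100.1) had 174 and 242. The laccases, which polymerise lignin in the wall, were at low counts, for example 2 and 18 (Potri.008G064000.1) and 2 and 17 (Potri.006G087100.1), without a call. A phenylcoumaran benzylic ether reductase-like protein (Potri.001G133200.1) had 16 and 49, just short of the threshold at an adjusted p of 0.0011.

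Of 24 rows for wall polysaccharides and proteins, 0 rose and 4 fell, and 17 had fewer counts under ambient UV-B. The median was -0.71, and -0.91 in the 10 rows with 100 or more counts. Cellulose synthase Potri.002G257900.1 fell to 5 counts, against 63 (-3.63, interval -5.30 to -2.33), and Potri.002G066600.1 to 25 against 93 (-1.87, interval -2.57 to -1.22). XTH-6 (Potri.006G071200.1), which cuts and rejoins xyloglucan, fell to 49, against 105, and a fasciclin-like arabinogalactan protein (Potri.001G367900.1) to 10 against 41. The most abundant member, a pectinesterase (Potri.014G149700.1), had 8872 and 15133 counts, a log2 ratio of -0.75 (interval -0.79 to -0.71) below the fold limit. Under the gene ontology term cell wall 0 of 104 rows rose and 5 fell, among them Potri.016G071900.1 (22 and 78) and the membrane-anchored Potri.013G120600.1 (44 and 113). Under glucan biosynthesis 1 of 31 rose, Potri.010G156700.1 (127 and 25, log2 ratio 2.37), and 4 fell, including Potri.016G119100.1 (10 and 72) and Potri.005G194200.1 (32 and 75), whose call ended with size factors and with the listed sums. The most abundant, Potri.010G115300.1, had 193 and 244.

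**Figure D3:**
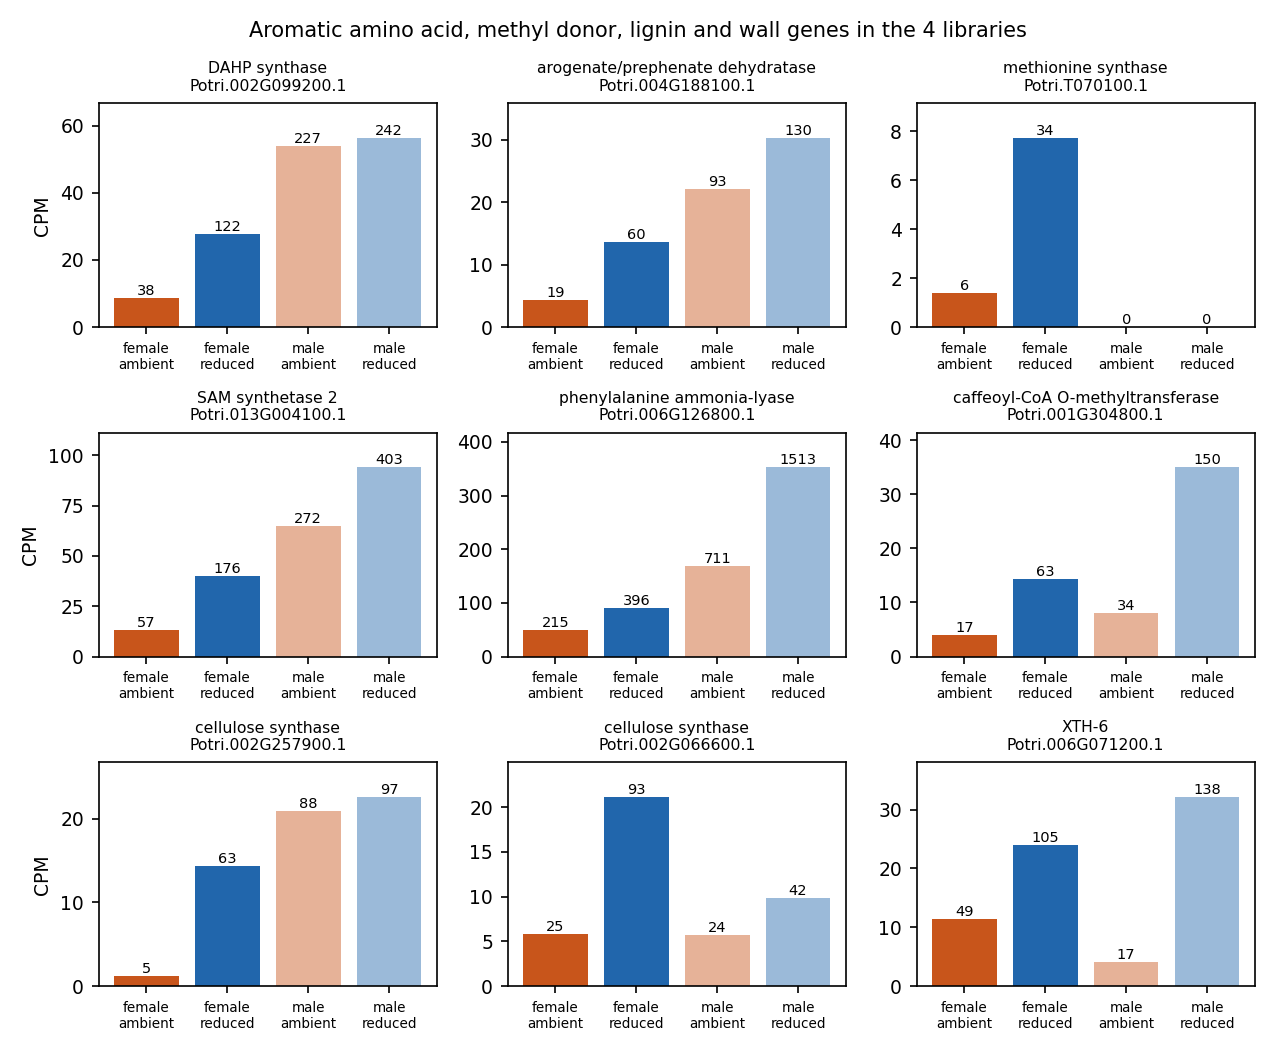
CPM (y axis, starting at 0, own scale in each panel) of 9 genes of aromatic amino acid, methyl donor, lignin and wall synthesis in the 4 libraries, with the raw counts above the bars. Bars run from females under ambient and reduced UV-B (solid) to males under ambient and reduced UV-B (pale). The ambient bar is lower than the reduced bar in females in all 9 panels, and phenylalanine ammonia-lyase is the panel without a call in females.

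Markers of xylem and secondary walls were also at lower counts. The 17 marker rows, all laccases or fasciclin-like proteins that also belong to the lignin and wall lists, held 33 counts (7.63 CPM) in females under ambient UV-B and 135 (30.7 CPM) in females under reduced UV-B, and 9 and 5 of the 17 were at 0. Rows for epidermis and wax, mostly ketoacyl-CoA synthases, which elongate wax lipids, held 36 and 88 counts over 13 rows, of which 6 and 4 were at 0. The wax and fatty acid list had 0 of 12 rows called, with a median of -0.90 over all 12 and 0.15 over the 2 rows with 100 or more counts, and its largest row, the acetyl-CoA carboxylase beta subunit (Potri.013G141100.1), had 268 and 245. The part of these tissues in the falls of lignin and wall genes was not tested.

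**Figure D4:**
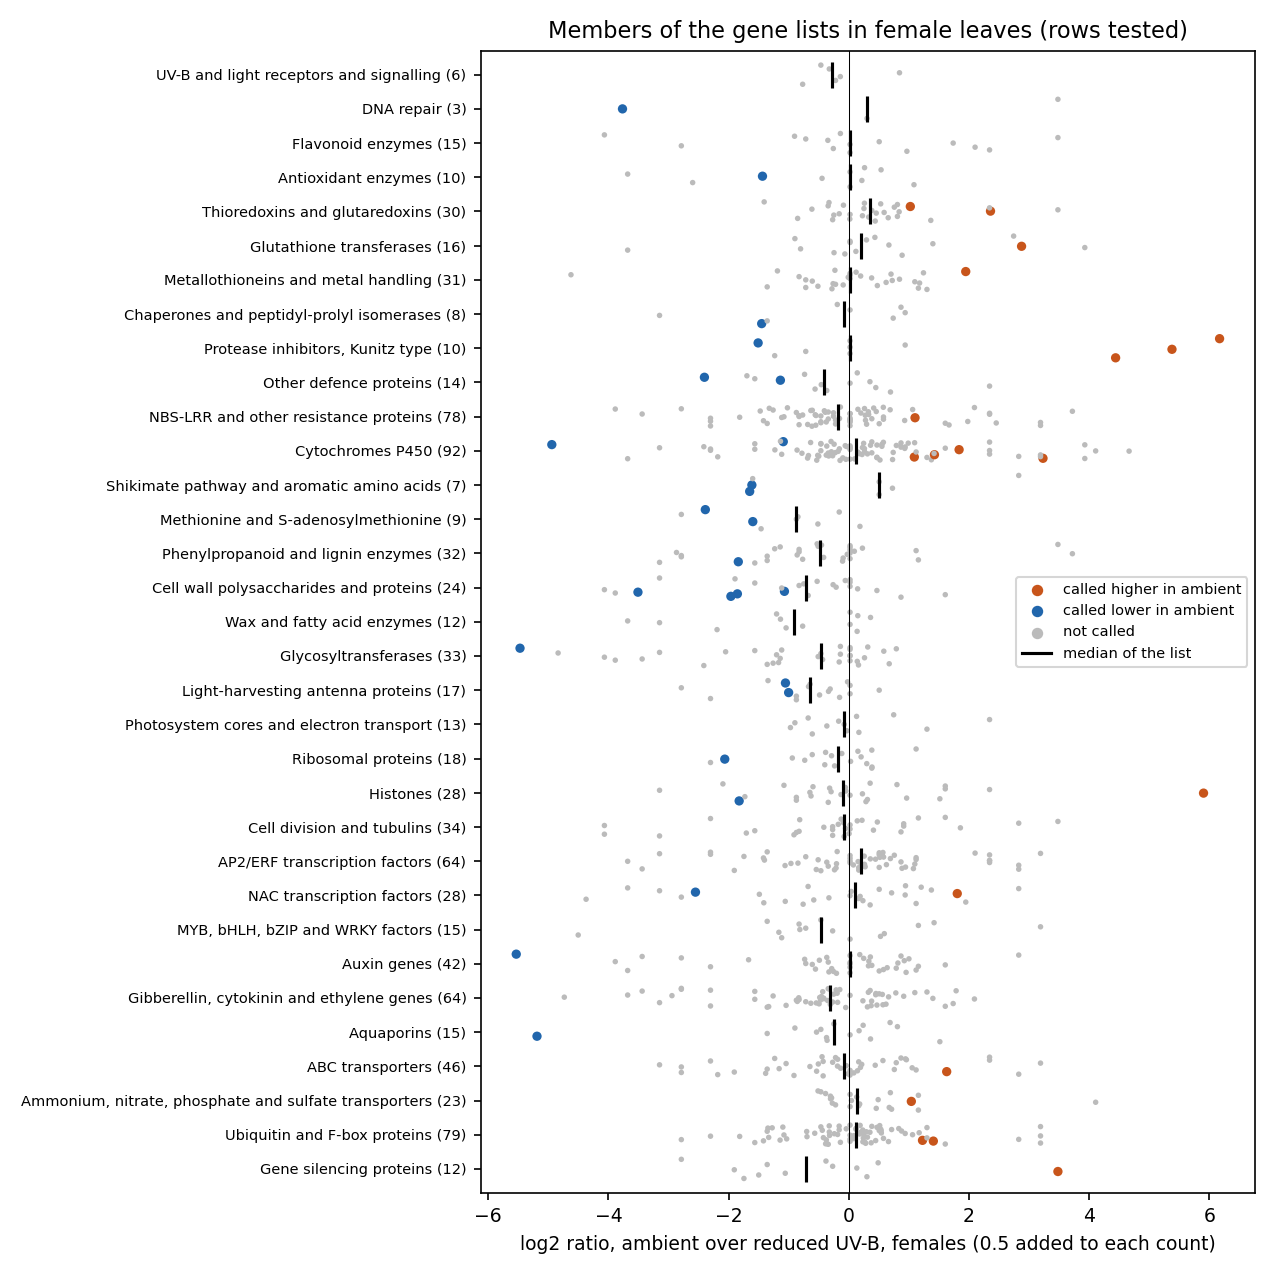
Log2 ratio of ambient over reduced UV-B in females (x axis, 0.5 added to each count) of each tested row in 33 gene lists (y axis, number of tested rows in brackets). Orange and blue points are rows called higher and lower, grey points were not called, and black bars are list medians. The wax and fatty acid list has a median of -0.90 with 0 calls. Methyl donor, gene silencing, wall and antenna lists have medians of -0.87, -0.72, -0.71 and -0.64. The aromatic amino acid list has 0.51, though its 2 calls are lower, and the thioredoxin and glutaredoxin list 0.36.

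Light-harvesting proteins, which bind chlorophyll and pass on captured light, had 2 lower calls, both close to the 2-fold limit. Of 17 antenna rows 0 rose and 2 fell, 14 had fewer counts under ambient UV-B, and the median was -0.64. Lhcb1 (Potri.005G239200.2) fell to 443 counts, against 900, just past the 2-fold limit (log2 interval -1.17 to -0.83), and Lhcb2 (Potri.014G165100.1) to 89 against 188 (-1.06, interval -1.44 to -0.69). The Lhcb1 call ended with size factors and with the sum of listed counts as the total, and the Lhcb2 call with the listed sum alone. Larger antenna rows went the same way without a call, Lhcb8 (Potri.008G067300.1) with 3276 and 5288 counts and another Lhcb1 (Potri.011G079500.1) with 2678 and 4243. Lhca3 (Potri.014G172400.1), of photosystem I and the most abundant, had 9060 and 9324, a log2 ratio of -0.02. Photosystem cores and electron carriers had 0 of 13 rows called and a median of -0.07, with plastocyanin A (Potri.005G246100.1), the copper protein that carries electrons to photosystem I, at 2908 and 3017.

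Rows annotated to the chloroplast thylakoid had 2 of 181 higher and 6 lower, and a median of -0.14. The 2 that rose were the cis-trans isomerase row Potri.007G113100.1, with 780 counts against 265 (1.58, interval 1.38 to 1.79), and Potri.009G140500.1 with 83 against 17 (2.31). The largest row under the term, Potri.011G142200.1, had 11006 and 12162. Under the term porphyrin biosynthesis 0 of 22 rows were higher and 2 lower. The 2 were Potri.017G030100.1 with 25 and 84 counts and Potri.010G042700.1 with 94 and 191. The call of Potri.010G042700.1, which is also annotated to succinate-CoA ligase activity and fatty acid biosynthesis, ended with size factors and with the listed sums. The most abundant row under that term, Potri.007G128200.1, had 266 and 427. Under response to radiation 0 of 48 rows rose and 2 fell, 33 had fewer counts under ambient UV-B, and the median was -0.50. The falls were a GH3 family protein (Potri.019G103500.1), of a family that conjugates auxin and jasmonate to amino acids, with 0 counts against 23, and Potri.010G125300.1 with 35 against 88. The leading row of that term, the iron-sulfur electron carrier Potri.004G218400.1, had 5033 and 8222, a log2 ratio of -0.69 (interval -0.74 to -0.63).

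Rows for protein folding and for starch metabolism moved in both directions. Rows with cis-trans isomerase activity, which help proteins fold, gave 3 rises and 1 fall in 28: Potri.004G168800.1 rose to 1998 counts, against 822 (1.30, interval 1.19 to 1.42), Potri.007G113100.1 as given above, and Potri.T051300.1 to 100 against 49. The described peptidyl-prolyl isomerase Potri.001G351400.1 fell to 30, against 84 (-1.46, interval -2.12 to -0.85), the 1 call among 8 chaperone rows. Under the term starch metabolism 1 of 15 rows rose, the plastid amylase row Potri.001G148900.2 with 475 counts against 149 (1.70, interval 1.43 to 1.97). The 2 that fell were Potri.007G009200.1, with 76 against 167, and Potri.010G042700.1, also counted above under porphyrin biosynthesis. Besides amylase activity, Potri.007G009200.1 is annotated to receptor serine/threonine kinase activity and meristem maintenance. Another amylase row, Potri.003G085500.1, the most abundant under the term, had 749 and 790.

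Cytochromes P450, oxidising enzymes of many pathways, had 4 rows higher and 2 lower of 92, with a median of 0.13. Potri.001G270600.1 rose to 106 counts, against 11 (3.29, interval 2.39 to 4.34), Potri.003G146800.1 to 255 against 96 (1.43), Potri.002G025800.1 to 95 against 45 (1.10), and Potri.007G115500.1 to 47 against 13. Potri.014G037900.1 fell to 5, against 171 (-5.07, interval -6.71 to -3.82), and Potri.019G130700.1 to 109 against 236 (-1.09). The most abundant, Potri.001G083900.1, had 828 and 586. An aminotransferase (Potri.017G014100.1) fell to 2 counts, against 51 (-4.65, interval -7.73 to -2.72). Among 33 glycosyltransferases, which attach sugars to small molecules and polymers, 0 rose and 1 fell, Potri.016G086400.1 with 0 counts against 22, and 21 had fewer counts under ambient UV-B. The most abundant, Potri.017G090800.1, had 59 and 48.

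Transport proteins were called singly. The ABC transporter Potri.003G034700.1, of the multidrug resistance class, rose to 370 counts, against 121 (1.64, interval 1.34 to 1.94), the 1 call of 46. A transporter for phosphate of high affinity (Potri.005G256100.1) rose to 108 against 53 (1.05, interval 0.56 to 1.55), the 1 call among 23 ion transporters, of which the most abundant, an ammonium transporter (Potri.008G173800.1), had 569 and 560. A Ca2+/cation exchanger (Potri.013G065800.1), which loads the vacuole with calcium in plants, fell to 34 counts, against 107 (-1.63, interval -2.23 to -1.06). A tonoplast aquaporin (Potri.004G216500.1) had 0 counts against 18. Its log2 ratio was -2.56 with 3 counts in place of the 0, and the exact interval ended at -2.11. The abundant aquaporin Potri.016G098200.1 had 459 and 289 without a call (0.69).

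Calls among regulators and growth genes went both ways, beside 1.46% of all tested rows called higher and 1.52% called lower. Of 28 NAC factors, plant transcription factors of stress and wall formation, Potri.011G123300.1 rose to 46 counts, against 13 (1.85, interval 0.93 to 2.86), and Potri.011G153300.1 fell to 9 against 56 (-2.61, interval -3.82 to -1.59), while the most abundant, Potri.013G054000.1, had 76 and 75. None of 64 AP2/ERF factors, 64 genes of gibberellin, cytokinin and ethylene, and 34 cell division genes and tubulins was called. Nor was any of 15 rows that a word pattern for MYB, bHLH, bZIP and WRKY factors picked. The most abundant members were an AP2/ERF factor (Potri.001G079600.1) with 365 and 330 counts and cytokinin oxidase (Potri.002G030500.1), which degrades cytokinin, with 2034 and 2907. In the other lists they were the HAT14-like row Potri.006G193700.1, described as a homeobox-leucine zipper protein, with 25 and 45, and a beta-tubulin (Potri.001G464400.1) with 94 and 95. Of 42 auxin genes the GH3 protein was the 1 call, and the most abundant, a SAUR gene (Potri.014G066900.1), had 315 and 269.

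Among 28 histones, linker histone H1 (Potri.002G043100.1) fell to 13 counts, against 48 (-1.86, interval -2.87 to -0.96), and an H4-like row (Potri.007G012500.1) had 29 counts against 0, with 0 in both male libraries. The most abundant, Potri.011G131400.1, had 592 and 625, and the H4-like rows are copies whose tags may be shared. Ribosomal protein S9 (Potri.012G144700.1) fell to 43, against 184 (-2.07, interval -2.59 to -1.59), the 1 call of 18 ribosomal rows, whose largest, L2 (Potri.013G143300.1), had 5530 and 6081. The RNA-dependent RNA polymerase row Potri.006G253500.1, of an enzyme class which makes double-stranded RNA for gene silencing, rose to 38 counts, against 3 (3.69, interval 2.03 to 6.03), the 1 call of 12 silencing genes, of which a Dicer homolog (Potri.002G181400.1) was the most abundant at 56 and 46. Of 79 ubiquitin and F-box rows 2 rose, a ubiquitin extension protein (Potri.002G190000.1) with 74 against 28 and an F-box protein (Potri.003G218400.1) with 86 against 37, while a ubiquitin row (Potri.014G115100.1) led with 505 and 436.

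The same test in males, whose libraries are separate from the female ones, called 264 rows higher under ambient UV-B (2.46%) and 157 lower (1.46%). Of the 157 rows higher in females, 152 had counts in males; 111 of these were above 0 on the log2 scale in males, 15 were called higher there and 4 lower. Of the 163 rows lower in females, 159 had counts in males; 94 of these were below 0, 19 were called lower and 5 higher. Their median log2 ratios in males were 0.40 and -0.16, against 1.63 and -1.90 in females, where the calls fixed the direction. Over all 10491 tested rows with male counts, 58.9% were above 0 in males and 41.1% below, and the male median over all tested rows was 0.11, beside 73.0% above 0 among the rows higher in females and 59.1% below 0 among the rows lower in females. With TMM factors, which move the male log2 ratios by -0.21, 87 of the 152 were above 0 (57.2%, against 47.2% of all rows) and 112 of the 159 below (70.4%, against 52.8%), with male medians of 0.18 and -0.37. Metallothionein 3a (Potri.011G118900.1) was called higher in both sexes, with 2104 counts in males under ambient UV-B and 486 in males under reduced UV-B. The glutaredoxin Potri.010G021800.1 was likewise, with 114 and 31 in males. Caffeoyl-CoA O-methyltransferase (Potri.001G304800.1) was called lower in both, with 34 and 150 in males, as was the thylakoid row Potri.018G025900.1 with 180 and 2605.

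A test of the 4 counts of each row asked directly whether the UV-B ratio differed between the sexes. It called the female ratio higher for 111 rows (1.03%) and lower for 217 (2.02%). This split depends on the scaling of the male libraries, since TMM factors gave 157 higher and 126 lower, and size factors 161 and 118. Of the rows called higher in females, 52 had a ratio called higher in females than in males and 0 a ratio called lower. Of those called lower in females, 68 had a ratio called lower in females and 2 a ratio called higher. Both splits reuse the female counts that made the calls, so their direction was largely fixed by the choice of rows. GSTU20 (Potri.008G175000.1) and the RNA-dependent RNA polymerase (Potri.006G253500.1) went opposite ways, with 3 counts in males under ambient UV-B against 131 under reduced UV-B for the first, and 7 against 85 for the other. Polyphenol oxidase (Potri.011G108300.1) had 126 and 13 in males and the Kunitz-type inhibitor Potri.019G124400.2 had 2014 and 372, both called higher there and lower in females.

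**Figure D5:**
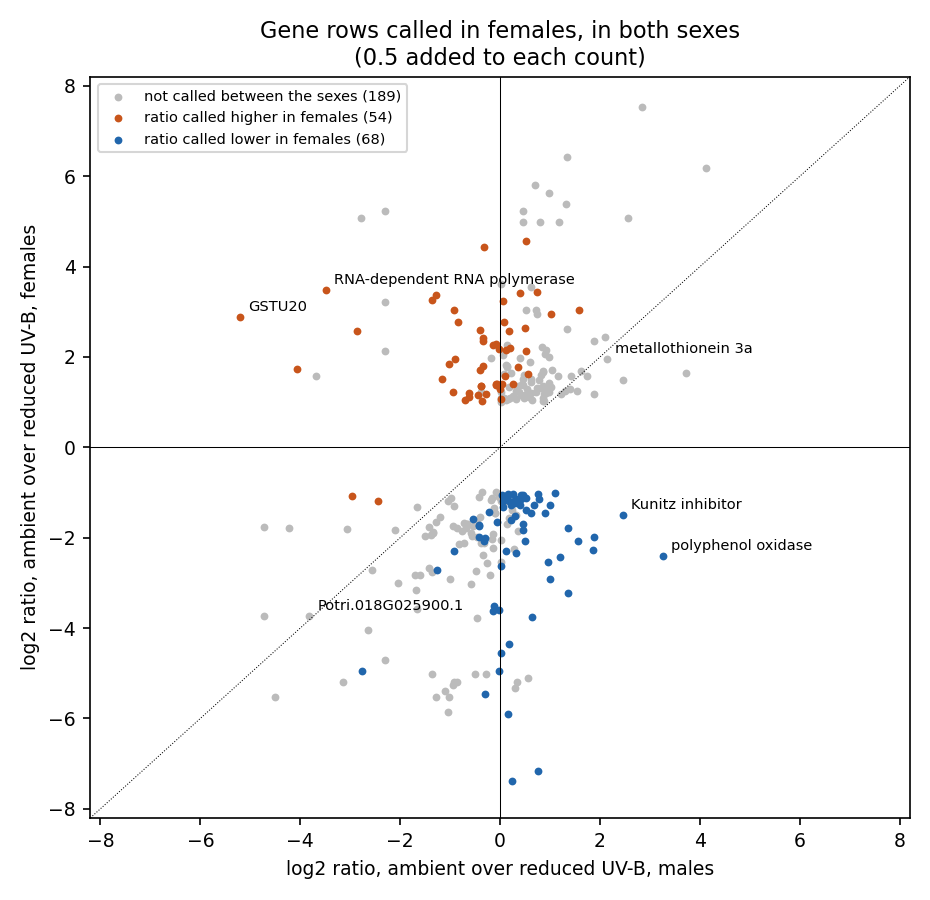
Log2 ratio of ambient over reduced UV-B in females (y axis) against that in males (x axis) for the 311 rows called in females that had counts in males, with 0.5 added to each count. Orange and blue points had a ratio called higher (54) or lower (68) in females than in males, and the dotted line marks equal ratios. Metallothionein 3a lies near that line, and GSTU20 and polyphenol oxidase lie far from it.

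Among the aromatic amino acid, methyl donor and wall genes that fell in females, the test of the 4 counts called some differences between the sexes and not others. DAHP synthase (Potri.002G099200.1) had 227 counts in males under ambient UV-B and 242 in males under reduced UV-B, and its ratio was lower in females by 1.59 on the log2 scale (adjusted p = 1.7e-06, exact test of the 4 counts). S-adenosylmethionine synthetase 2 (Potri.013G004100.1) had 272 and 403 in males, with an adjusted p of 3.5e-04 by the same exact test, but its call ended with TMM factors. Cellulose synthase Potri.002G257900.1 had 88 and 97 in males, with an adjusted p of 3.1e-08 by the exact test. For arogenate/prephenate dehydratase (Potri.004G188100.1), with 93 and 130 in males, and cellulose synthase Potri.002G066600.1, with 24 and 42, the difference between the sexes was not called. XTH-6 (Potri.006G071200.1) had 17 and 138 in males, a larger fall than in females (adjusted p = 2.2e-04, exact test of the 4 counts). The methionine synthase Potri.T070100.1 was at 0 in both male libraries, which cannot be compared.

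With the presumed spread between pools, 14 rows kept their call, and these are named here after their values were seen. The 3 higher ones were all at 0 in females under reduced UV-B: Potri.009G140400.1 (91 counts, antioxidant activity), Potri.001G119100.8 (51, plastid stroma) and Potri.015G074100.1 (42, aldehyde dehydrogenase activity). Of the lower ones, Potri.010G105700.1, annotated to the response to light, had 0 counts under ambient UV-B and 84 under reduced UV-B, and Potri.012G065500.1 had 0 and 72. In males under ambient and reduced UV-B they had 68 and 59 counts and 73 and 44 counts. The remaining lower rows were Potri.018G025900.1, Potri.T094100.1, Potri.006G142600.1 and cytochrome P450 Potri.014G037900.1, given above, and Potri.006G056100.1 (8 and 202), Potri.006G065500.1 (25 and 425), Potri.017G030600.1 (13 and 187), Potri.011G021600.1 (10 and 151) and Potri.019G104700.1 (3 and 92). Potri.001G119100.8 and Potri.011G021600.1 were at 0 in both male libraries. Near 0 there, under ambient and reduced UV-B, were Potri.009G140400.1 (3 and 0), Potri.019G104700.1 (0 and 2) and Potri.017G030600.1 (2 and 3). Potri.018G025900.1, Potri.006G142600.1 (255 and 1778 in males) and Potri.006G065500.1 (39 and 250) were called lower in males too, and none of the other rows was called there. Cytochrome P450 Potri.014G037900.1 was the 1 row of the 14 whose description names a protein.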

How the data were processed

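Leaf RNA of 9 plants was pooled per library, with 1 library per group, per the labels' protocols, which also mention 3 biological replicates of the extraction. Tags of 17 bp were extracted and counted with the Illumina pipeline, and each library was sequenced on a lane of its own, per the labels' protocols. The deposited table holds the authors' raw counts per gene row, with each library total in the column header, and columns headed TPM by the authors, which are CPM, that is, counts scaled by that total without a length correction. The genome build, the assignment of tags to genes and the handling of tags shared by near-identical copies are not stated in the labels or headers, and neither coordinates nor sequences are printed. Gene descriptions are the table's own best database hits, and 1693 of the tested rows had a description that names a protein.

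The raw counts were analysed, and rows with 10 or more counts over the 4 libraries were kept. With 1 library per group no replicate spread exists. Each row's 2 counts were therefore compared by an exact two-sided conditional binomial test given the header totals (scipy 1.17.1), adjusted by Benjamini-Hochberg over 10741 rows, and called at an adjusted p below 0.001 and a fold of 2 or more. The UV-B ratios of the sexes were compared by an exact conditional test of 4 counts with the same thresholds. Intervals are exact 95% conditional intervals. Tests and intervals cover counting error only, and tags copied by PCR are not independent molecules. For a row at 0 in either female library, a printed UV-B ratio was computed with 3 counts in its place and is not a confidence limit. The limit of the exact interval is given beside it. Medians of lists use 0.5 added to each count. The exact tests of 2 and of 4 counts were run before use on simulated data with counting error only. The edgeR test with a presumed spread was not run on simulated data.

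The 47 lists are word patterns, 33 on descriptions and 14 on gene ontology terms, and a list is described by its calls and its median, with no test. The genes and lists were chosen with earlier results of these data known. The named genes are the 15 largest and 15 smallest ratios among called, described genes with 50 or more counts in the higher library, up to 3 called members per direction and the most abundant member of each list, and the 5 most abundant calls per direction. Genes named outside this rule, such as the chalcone synthases, the COP1-like rows, the laccases, the fasciclin-like protein, Potri.007G115500.1 and the uncalled copies beside named genes, were chosen after their values were seen. Alternatives were TMM factors (edgeR 4.0.16), size factors (DESeq2 1.42.0), the sums of the listed counts as totals, other filters and thresholds, a listed 0 taken as 1, and edgeR's exact test with a presumed spread between pools (coefficient of variation 0.3).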

Additional observations from a re-analysis of the deposited data

Results flagged for a closer look

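These genes, called in females and named above, drew attention because their UV-B ratio differed between the sexes by the exact test of 4 counts (adjusted p below 0.001, 2-fold or more). Each value is the female log2 ratio of ambient over reduced UV-B minus the male one, from 1 pool per group, and a sign change between the sexes marks opposite directions.

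Ratios lower in females came first among the defence and specialised metabolism genes. The difference was -5.82 for polyphenol oxidase (Potri.011G108300.1), -3.99 for the Kunitz-type inhibitor Potri.019G124400.2, -3.60 for Potri.T094100.1 and -1.24 for the pop3 peptide. It was -5.16 for the glycosyltransferase Potri.016G086400.1, computed with 0.5 added because of its 0, -5.06 for cytochrome P450 Potri.014G037900.1 and -4.83 for the aminotransferase Potri.017G014100.1. Among them only polyphenol oxidase and the Kunitz-type inhibitor were called higher in males.

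In synthesis and growth genes it was -4.71 for DNA-3-methyladenine glycosylase, -3.52 for cellulose synthase Potri.002G257900.1, -2.58 for ribosomal protein S9, -2.33 for histone H1, -1.85 for the Ca2+/cation exchanger, -1.59 for DAHP synthase and -1.06 for S-adenosylmethionine synthetase 2. In chloroplast and redox genes it was -2.23 for Potri.006G142600.1, -2.19 for the porphyrin row Potri.017G030100.1, -1.21 for the 2-cys peroxiredoxin and -1.10 for Lhcb2. For the abundant rows Potri.001G394700.1, Potri.016G015500.1 and Potri.005G190100.1 it was -2.13, -1.39 and -1.24, and for the endopeptidase row Potri.014G171600.1 it was -1.93. Potri.005G190100.1 had 38864 counts in males under ambient UV-B and 38016 in males under reduced UV-B.

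Ratios higher in females were led by GSTU20 with 8.33 and the RNA-dependent RNA polymerase with 7.26, both called lower in males. The Kunitz-type inhibitor Potri.001G309900.1 followed with 5.07 and cytochrome P450 Potri.001G270600.1 with 3.24. The glucan synthesis row Potri.010G156700.1 had 2.72, the endopeptidase row Potri.018G014800.1 2.71 and the thylakoid row Potri.009G140500.1 2.40. Potri.011G049900.1 had 2.15, Potri.005G139000.1 1.93 and Potri.001G400200.1 1.60. XTH-6, which fell in both sexes, had 1.92. The phosphate transporter had 1.75, the resistance protein Potri.012G074700.1 1.73, the benzoyltransferase Potri.007G003800.1 1.49, Potri.013G061200.1 1.46, Potri.017G097500.1 1.45, Potri.005G001300.1 1.31 and the ABC transporter Potri.003G034700.1 1.07.

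Of these 40 calls, 35 were kept with TMM factors, 34 with DESeq2 size factors and 32 with the sums of the listed counts as totals. The 5 that ended with TMM factors were the glycosyltransferase, histone H1, the Ca2+/cation exchanger, Lhcb2 and S-adenosylmethionine synthetase 2.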

How the results depend on the processing

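No paired analysis was possible because each group has 1 library and the labels give no replicate numbers, and for the same reason no library could be left out. The 157 higher and 163 lower calls in females became 61 and 78 at a fold threshold of 4, 406 and 410 at an adjusted p below 0.05, and 3 and 11 with the presumed spread between pools. TMM factors (156 and 164), DESeq2 size factors (161 and 158), the sums of the listed counts (190 and 149), no filter (145 and 152), a filter of 100 counts (142 and 142) and a listed 0 taken as 1 (151 and 154) stayed within 1.5 times. The higher and lower calls between the sexes, 111 and 217, became 157 and 126 with TMM factors, 161 and 118 with size factors and 169 and 105 with the sums of the listed counts, the direction that the male median shift of -0.21 under TMM factors gives. They were 103 and 200 without a filter and 111 and 241 with 100 counts.

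Of the 85 named genes with a call, 85 kept it with TMM factors, 81 with size factors, 80 with the listed sums, 84 with a listed 0 taken as 1 and 5 with the presumed spread, and 0 changed direction. The call that ended with a listed 0 taken as 1 was the aquaporin Potri.004G216500.1. The female medians moved by at most 0.06 with any scaling. Of 47 list medians, 10 changed sign when only rows with 100 or more counts were kept, and 9 without a filter, so medians of lists near 0 or of rows with few counts give no direction.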
